A study of Mus musculus with 4 samples.

Results

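The comparison described here set the R1 neurons against the R1 embryonic stem cells (ESCs) they were derived from, 2 of the 4 libraries of the study, at every CpG site listed in both tables on chromosomes 1 to 19, X and Y. There were 2187303 such sites, out of 2310510 listed in R1 ESCs and 5295489 listed in R1 neurons. Methylation of DNA was measured by reduced representation bisulfite sequencing (RRBS). The samples were R1 ESCs, a wild-type mouse line, Tet/Tet ESCs, a line made from R1 by knocking tet-off constructs into Dnmt1, and neurons differentiated from each line, with 1 library per condition. R1 ESCs were grown with fetal bovine serum and LIF, and the selection drugs named for Tet/Tet cells are not named for R1. R1 neurons came from R1 ESCs kept for 2 days as embryoid bodies without LIF and then for 10 to 15 days in Ndiff227 medium, by the labels. Neither R1 library carried a transgene, and the labels do not give passage numbers or say how many cultures went into a library. The 2 ESC libraries carried the number of one sequencing project and the 2 neuron libraries that of another, and the labels describe phenol and chloroform extraction for ESC DNA and a column kit for neuron DNA. Cell type, sequencing project and extraction therefore coincide and cannot be told apart in any difference given below.

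Methylation of the cytosine in CpG is copied to the new strand at replication by DNMT1 and set on unmethylated DNA by DNMT3A and DNMT3B. Most CpGs of a mammalian somatic genome are methylated, and CpG islands at gene starts are the main exception. Promoters of many germline genes and of several pluripotency genes are known to become methylated as embryonic cells leave the pluripotent state. In RRBS the DNA is cut with MspI at CCGG, so that CpG-rich stretches are read more often than the rest, and bisulfite turns unmethylated cytosine into a base read as thymine. Each deposited value is the percent of reads that kept the cytosine at 1 CpG. The tables give no read numbers, so the depth behind a value is unknown and every site was weighted equally. With 1 library on each side there was no replicate check and no test between the conditions. Every SD below is over CpG sites and says nothing of the spread between cultures. The tables hold no RNA, so the cell types named by the labels could not be checked by expression.

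Across the shared sites the mean methylation level was 29.2% in R1 ESCs (SD 35.1 over sites) and 56.5% in R1 neurons (SD 43.6 over sites). The difference, neurons minus ESCs, averaged 27.3 percentage points (SD 34.3 over sites). The middle of the distribution moved further than the mean, from a median site of 7.89% in R1 ESCs to 82.6% in R1 neurons. Of the shared sites, 71.2% were higher in neurons, 12.54% were lower and 16.2% had the same value in both. A difference of at least 25 points upwards was seen at 43.5% of sites and one of at least 25 points downwards at 1.45%. Sites at 10% or below made up 51.8% of the shared sites in ESCs and 34.0% in neurons, whereas sites at 90% or above made up 11.2% and 42.3%. On mitochondrial DNA the R1 ESCs averaged 3.19% and the R1 neurons 15.9%. With each library rescaled by its mitochondrial mean, and negative results counted as unmethylated, the difference over shared sites was 25.9 points. This kept sites below the background from falling further, and the difference without it was not computed.

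The genome was then cut into tiles of 1 kb, and a tile was used where both tables listed at least 5 CpGs in it, which left 114478 tiles. A tile, promoter or gene is said to gain or lose methylation where its mean differed by at least 25 points, and to be unmethylated in both where its mean was under 10% in each library. These limits carry no test. Gain was found in 71804 tiles (62.7%), loss in 110 (0.0961%), and 18024 tiles (15.7%) were unmethylated in both. A further 5642 tiles (4.93%) were at 80% or above in both libraries. Neurons were higher in 95.1% of tiles, by any amount.

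The shape of the distribution differed as well. In R1 ESCs 56.8% of tiles lay between 20% and 80%, against 15.6% in R1 neurons. Tiles at 90% or above were 1.38% of the total in ESCs and 49.2% in neurons. The R1 ESC genome was thus measured as partly methylated over most of its tiles, and the R1 neuron genome as mostly near the upper or the lower end. The 33283 tiles that were under 10% in ESCs divided in neurons: 54.2% of them were again under 10%, 6.79% were at 90% or above, and the median was 8.04%. Tiles only slightly above that limit in ESCs went elsewhere. Those between 10% and 20% in ESCs had a median of 85.5% in neurons, those between 20% and 40% a median of 91.4%, and those between 40% and 60% a median of 93.1%.

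**Figure D1:**
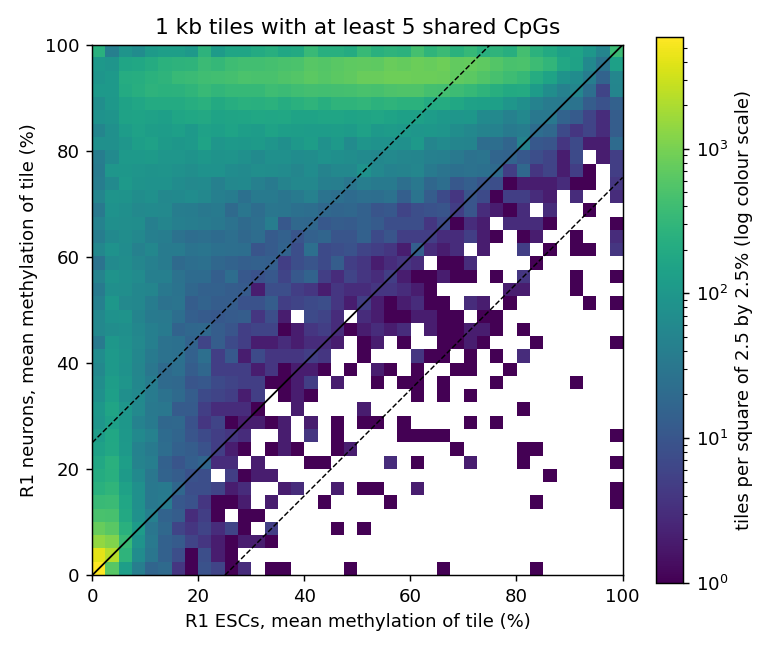
Mean methylation of 114478 tiles of 1 kb, R1 ESCs on the horizontal axis and R1 neurons on the vertical axis, both in percent, with the number of tiles in each square as colour on a log scale. The solid line marks equal levels and the dashed lines a difference of 25 points; tiles crowd the lower left corner and a band near the top, and 110 lie on or below the lower dashed line.

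The difference followed CpG density. In tiles with 15 to 19 CpGs the median was 47.6% in ESCs and 92.8% in neurons, and 76.2% of tiles gained. In tiles with 30 to 39 CpGs the ESC median was 12.9% and the neuron median 77.8%, with neuron quartiles as far apart as 14.5% and 93.1%. In tiles with 80 CpGs or more the medians were 1.95% and 2.80%, 2.32% of tiles gained and 92.7% were unmethylated in both. CpG-poor tiles thus went to the top of the scale, CpG-dense tiles stayed at the bottom, and tiles of middle density were divided between the ends.

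**Figure D2:**
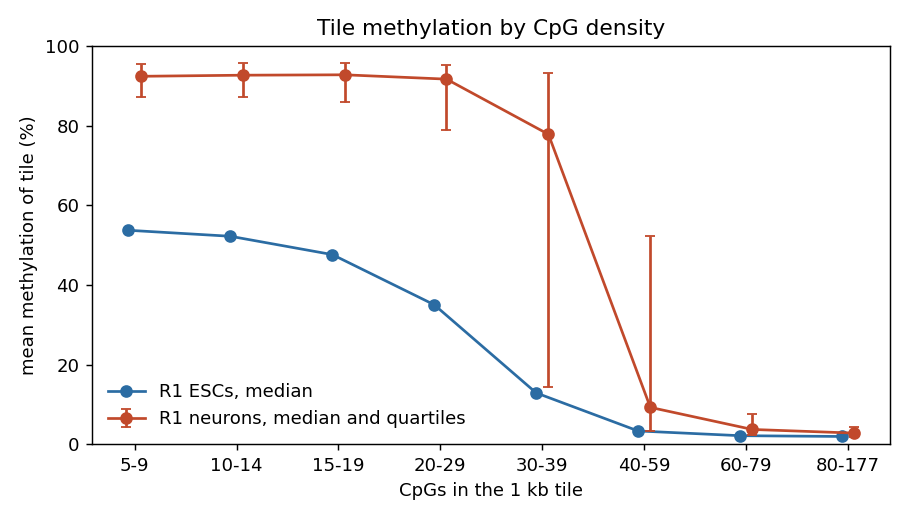
Median of the mean methylation of 1 kb tiles, in percent, by the number of CpGs in the tile, for R1 ESCs (circles, blue) and R1 neurons (circles, red, with bars from the lower to the upper quartile over tiles). The neuron median falls from 92.8% in tiles of 15 to 19 CpGs to 2.80% in the densest tiles, and the bars are widest at 30 to 39 CpGs.

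By position, sites in promoters, taken as 1 kb to either side of an annotated gene start, averaged 6.47% in ESCs (SD 17.6) and 15.3% in neurons (SD 29.4). Sites in gene bodies outside promoters averaged 37.9% (SD 35.9) and 74.9% (SD 35.7), and intergenic sites 46.4% (SD 35.9) and 83.3% (SD 27.1). Gene bodies and intergenic DNA therefore differed by nearly the same amount, 37.0 points each. Sites in soft-masked repeats averaged 45.4% in ESCs and 81.1% in neurons. Tiles gained on every chromosome, with mean differences from 32.1 points on X to 37.3 points on chromosome 10, and 29.0 points on Y.

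CpG islands, stretches in which CpGs are not depleted, depended on where they lay. Island sites in promoters averaged 2.58% in ESCs and 5.66% in neurons, with medians of 0.633% and 1.04%. Island sites in gene bodies averaged 6.86% and 23.5%, and intergenic island sites 24.5% and 55.2%. Of the islands with at least 5 shared sites, 8.15% of 11920 in promoters gained, 51.1% of 4370 in gene bodies and 62.8% of 3071 in intergenic DNA. Sites within 2 kb of an island, the shores, averaged 20.4% in ESCs and 53.7% in neurons, and sites farther out 47.5% and 87.4%.

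Promoters were scored for 21847 genes with at least 5 shared sites. Of these, 6338 (29%) gained, 14 (0.0641%) lost and 11445 (52.4%) were unmethylated in both. Among the 14537 protein-coding genes scored, 2464 (16.9%) gained, 7 (0.0482%) lost and 9480 (65.2%) were unmethylated in both. The median difference over the protein-coding promoters was 2.73 points. A promoter with island sites gained in 6.5% of 11964 cases and was unmethylated in both in 76.5%, whereas a promoter without island sites gained in 65.5% of 2573 cases and was unmethylated in both in 12.9%. A promoter with island sites went from a mean under 10% to a mean of at least 50% at 187 protein-coding genes (1.56% of those with island sites). Over all protein-coding promoters the share was 3.1%. These means are over the whole promoter window, so the island sites themselves need not have changed.

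**Figure D3:**
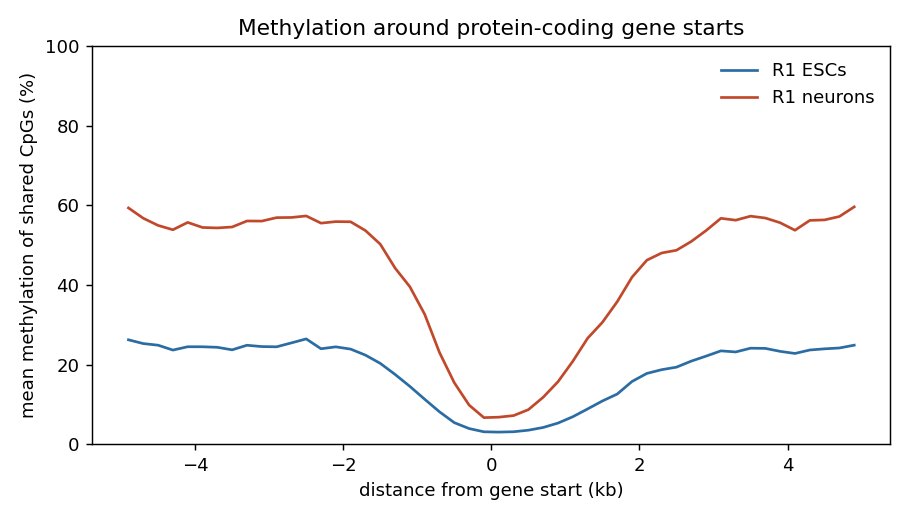
Mean methylation of shared CpGs, in percent, in steps of 200 bp against the distance from the start of 21938 protein-coding genes, in kb, with blue for R1 ESCs and red for R1 neurons. Both lines dip at the gene start, to 3.12% in ESCs and 6.68% in neurons at 100 bp upstream, and at 4.9 kb upstream they stand at 26.2% and 59.3%.

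To show these outcomes at single CpGs, 240 bases are given from each of 4 promoters: a pluripotency and a germline promoter, each with the largest gain of its list, the protein-coding promoter with the largest loss among those with at least 10 sites, and a neuronal promoter that was unmethylated in both. All are from the GRCm38 (mm10) sequence, printed 5′ to 3′ on the strand of the gene, and lie outside annotated exons. Capitals mark the CpGs listed in both tables.
Dppa4, chr16:48283930-48284169, plus strand, 197 to 436 bp downstream of the gene start: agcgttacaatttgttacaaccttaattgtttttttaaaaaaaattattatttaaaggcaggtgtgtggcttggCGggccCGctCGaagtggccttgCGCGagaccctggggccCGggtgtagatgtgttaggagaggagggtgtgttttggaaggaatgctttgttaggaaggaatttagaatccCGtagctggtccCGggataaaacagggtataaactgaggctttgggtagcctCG
Syce1, chr7:140787496-140787735, minus strand, 117 to 356 bp downstream of the gene start: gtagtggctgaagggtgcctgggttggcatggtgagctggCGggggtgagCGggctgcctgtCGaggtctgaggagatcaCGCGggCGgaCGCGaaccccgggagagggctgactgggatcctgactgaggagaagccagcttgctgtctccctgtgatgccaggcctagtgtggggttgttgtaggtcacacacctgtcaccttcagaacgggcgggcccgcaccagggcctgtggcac
Pls3, chrX:75874808-75875047, minus strand, 135 to 374 bp downstream of the gene start: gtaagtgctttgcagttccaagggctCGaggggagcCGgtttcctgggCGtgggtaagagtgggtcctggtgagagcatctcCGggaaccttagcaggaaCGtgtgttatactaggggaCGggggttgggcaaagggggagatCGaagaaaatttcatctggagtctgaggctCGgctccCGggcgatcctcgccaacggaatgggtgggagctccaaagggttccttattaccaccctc
Elavl3, chr9:22052024-22052263, minus strand, up to the base before the gene start: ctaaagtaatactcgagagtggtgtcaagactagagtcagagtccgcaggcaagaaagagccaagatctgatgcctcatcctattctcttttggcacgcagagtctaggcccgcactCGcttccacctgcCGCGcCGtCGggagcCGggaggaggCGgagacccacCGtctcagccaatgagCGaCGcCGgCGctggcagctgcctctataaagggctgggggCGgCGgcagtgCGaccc
The 9 marked CpGs of Dppa4 averaged 2.13% in R1 ESCs (SD 5.18) and 84.2% in R1 neurons (SD 7.76). All 9 were between 75% and 94.7% in neurons, and the highest of them in ESCs was 15.8%. At Syce1 the last marked CpG was listed at 100% in ESCs and the other 7 at 0%, and in neurons the 8 averaged 96.9% (SD 8.84). All 8 lay between 158 and 210 bp downstream of the gene start. Over the whole gene Syce1 was at 39.7% in ESCs and 93.1% in neurons, on 19 sites. The 15 marked CpGs of Elavl3 averaged 1.27% (SD 1.47) and 3.22% (SD 4.37), so that all 15 stayed low in both. The 9 marked CpGs of Pls3 averaged 1.84% (SD 2.17) and 2.55% (SD 4.07), so the Pls3 loss did not lie in this stretch.

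**Figure D4:**
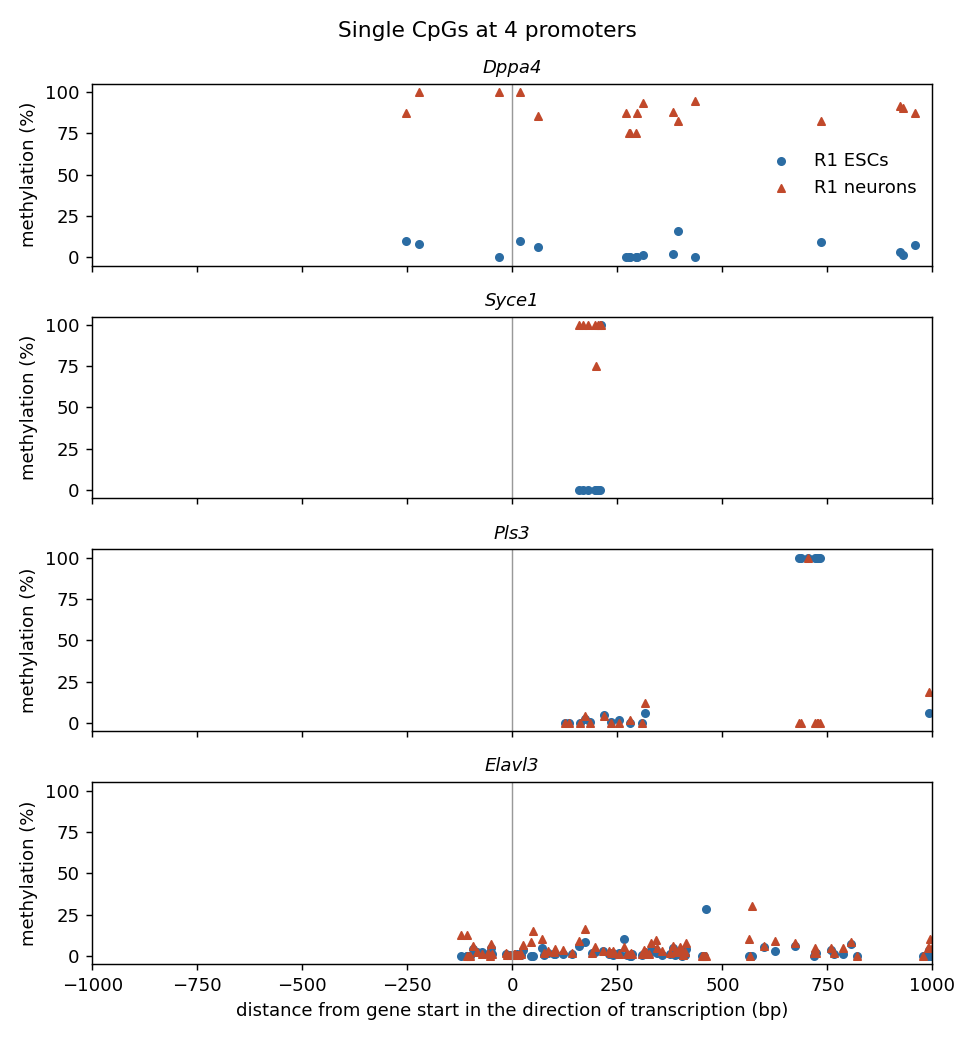
Methylation in percent of each shared CpG against its distance from the gene start in bp, positive in the direction of transcription, at Dppa4, Syce1, Pls3 and Elavl3, with blue circles for R1 ESCs and red triangles for R1 neurons. The 18 CpGs of Dppa4 separate fully, the 86 of Elavl3 stay near the bottom in both, and 6 of the 19 of Pls3 stand at 100% in ESCs and 0% in neurons.

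The largest promoter gains, among protein-coding genes with at least 10 shared sites, ran from nearly unmethylated to nearly fully methylated. Lrrc2, a leucine-rich repeat protein (chr9:110951545-110984066), was at 5.08% in ESCs (SD 7.40) and 97.6% in neurons (SD 4.25) over 10 sites, a difference of 92.6 points. Fam83e went from 2.67% to 93.7% over 10 sites. Trap1a, a tumour rejection antigen gene on the X chromosome, went from 5.88% to 95.9% over 10 sites. The next places were taken by Jade1, a subunit of a histone acetyltransferase complex, and by D1Pas1, a testis-expressed relative of the RNA helicase Ddx3x. D1Pas1 had the most sites of the group, 45, and all 45 were higher in neurons, with means of 6.48% (SD 6.37) and 95.4% (SD 6.35). Jade1 stood at 2.71% and 92.5% over 13 sites. Timm8a2, 4930404N11Rik and the homeobox gene Rhox6 followed with gains between 87.3 and 88.2 points. In all 8 promoters every shared site was higher in neurons, and no promoter had an ESC site above 25%.

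Of the pluripotency genes, 25 of 33 had a scored promoter, and 9 of these gained (36%, beside 16.9% of all protein-coding promoters) while 13 were unmethylated in both (52%, beside 65.2%). None lost. The median difference was 5.89 points. Dppa4, a nuclear protein of early embryonic cells, went from 4.14% (SD 4.87) to 88.0% (SD 8.04) over 18 sites, and Gdf3, a TGF-beta family ligand, from 1.83% to 69.8% over 16 sites. Zfp42, which encodes the ESC marker REX1, went from 2.00% (SD 3.71) to 67.9% (SD 43.2) over 8 sites, 2 of which were still at or below 10% in neurons. Tdh, the threonine dehydrogenase on which mouse ESCs depend, went from 3.36% to 65.1%. Pou5f1, the gene of OCT4, went from 1.68% (SD 2.55) to 40.7% (SD 23.9), and all 17 of its sites were higher in neurons. Dppa3, Lefty1, Prdm14 and Esrrb also gained, and Dppa3 and Esrrb were already at 39.1% and 48.7% in ESCs. Nanog had 5 sites, at 2.53% and 21.7%, which is below the limit for a gain.

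Other core factors of the pluripotent state were low on both sides. Sox2, which neural progenitors also use, was at 4.38% in ESCs and 2.64% in neurons over 117 sites. Klf4 was at 1.17% and 1.99% over 123 sites, Klf5 at 1.10% and 2.27% over 100, and Klf2 at 2.96% and 5.58% over 106. Sall4 and Lin28a were both under 4% in each library. Within this list the 9 promoters that gained had 32 sites or fewer, and the 4 with 100 sites or more were all unmethylated in both.

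Of the 10 lists, the germline genes had the largest share of gains. A promoter was scored for 34 of 43, and 33 of the 34 gained (97.1%, beside 16.9% of all protein-coding promoters), with a median difference of 68.0 points. None was unmethylated in both. The ESC levels ranged from 3.37% to 63.4% with a median of 13.3%, and the neuron levels from 17.2% to 97.1% with a median of 88.5%. Among genes of the synaptonemal complex, which joins paired chromosomes in meiosis, Sycp1 went from 21.0% (SD 16.7) to 89.0% (SD 11.4) and Sycp2 from 13.04% to 86.0%. Among genes of the piRNA pathway, which silences transposons in germ cells, Piwil2 went from 10.1% to 92.0% and Mael from 16.2% to 87.3%. Ddx4, the germ cell helicase also called Vasa, went from 8.09% (SD 12.4) to 84.3% (SD 8.70), and all 41 of its sites were higher in neurons. Dazl, a germ cell RNA-binding protein, ended at 57.1% over 90 sites, from 10.5%. Stag3, a meiotic cohesin subunit, was the one member below the limit, with 3.73% and 17.2% over 35 sites.

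The neuronal genes are those for the cytoskeleton, synapse and transmitters of mature neurons. Of the 31 with a scored promoter, out of 34, 29 were under 25% in R1 ESCs. Most protein-coding promoters were too, with an upper quartile of 5.04% in R1 ESCs. In all, 13 were unmethylated in both (41.9%, beside 65.2% of all), 4 gained (12.9%, beside 16.9%) and none lost. These shares turned on the measure. Of promoters of all gene types, 52.4% were unmethylated in both by the means used so far. By the medians of sites 22 of the 31 (71%) were unmethylated in both, beside 62.5% of promoters of all gene types. Within 500 bp of the start 20 of 29 (69%) were, beside 62.9%. The share of protein-coding promoters alone was not computed for these alternatives. With a limit of 10 points 12 (38.7%) gained, beside 40.7% of promoters of all gene types. Tubb3, the neuronal beta tubulin, was at 1.91% in ESCs and 3.71% in neurons. Map2 and Mapt, which encode microtubule-associated proteins, were at 1.83% and 3.52%, and at 1.22% and 1.04%. Elavl3, a neuronal RNA-binding protein whose upstream sequence is printed above, was at 1.96% (SD 3.54) and 4.09% (SD 4.62) over 86 sites. The 4 that gained were Dlg4, Camk2a, Syp and Ank2, of which Camk2a, a kinase of the postsynapse, went from 34.6% to 78.7%, and Syp, the synaptic vesicle protein synaptophysin, from 7.79% to 38.5%. Dlg4, the scaffold PSD-95, went from 17.4% to 95.2% on 6 sites. Of the markers set out for the cell types of the labels, Syn1 was at 9.70% and 20.5%, and Rbfox3 and Dcx had too few shared sites at the promoter to be scored.

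The neurogenic list, mostly transcription factors of neural development, came next. Of 34 scored promoters, 26 were unmethylated in both (76.5%, beside 65.2% of all) and the median difference was 0.52 points. Pax6, a factor of forebrain and eye progenitors, was at 4.93% in ESCs and 7.95% in neurons, and Sox1, an early neural factor, at 1.96% and 3.64%. Tbr1, a factor of cortical projection neurons, was the only member to gain, from 21.3% to 79.95%, on 6 sites. Of the Hox genes, which set position along the body axis, 26 of 38 were unmethylated in both (68.4%, near the 65.2% of all), and Hoxd12 alone gained, from 9.73% (SD 8.56) to 54.7% (SD 17.1), with all 51 sites higher. Hoxb2 was lower in neurons at all 7 of its sites, with means of 28.9% (SD 32.1) and 6.79% (SD 10.1), a difference of -22.1 points that is short of a loss.

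**Figure D5:**
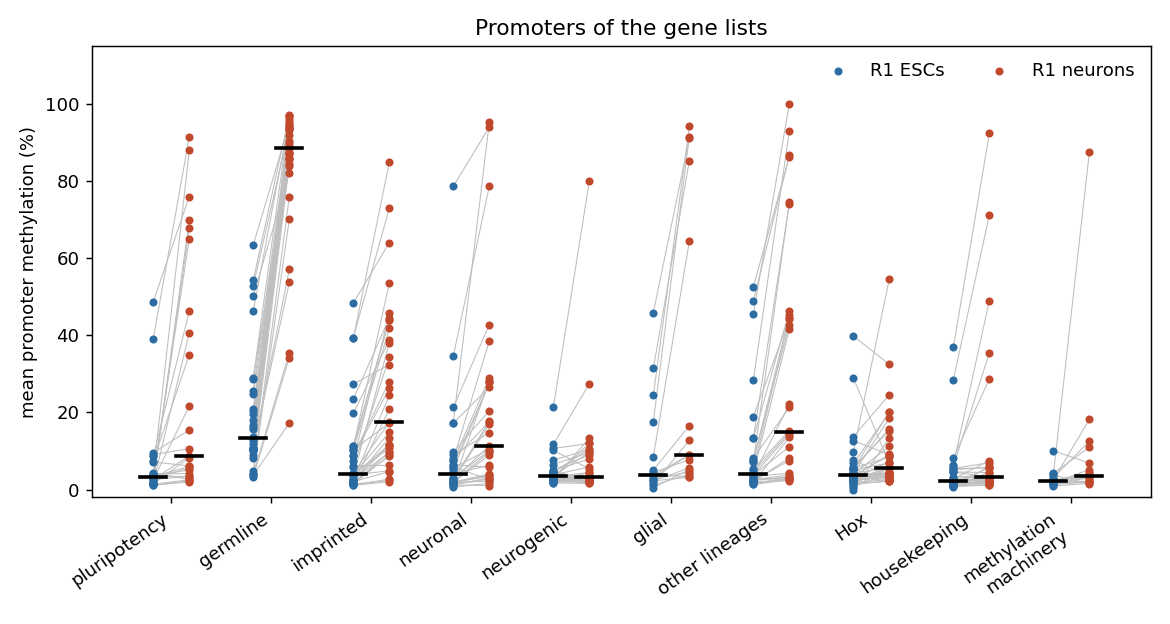
Mean promoter methylation, in percent, of each scored member of the 10 gene lists, with blue points for R1 ESCs and red points for R1 neurons joined by a grey line for each gene, and black bars for the medians. The germline median goes from 13.3% to 88.5%, while the neurogenic medians are 3.47% and 3.27%.

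Of the glial genes, 16 of 22 had a scored promoter. Of these 9 were unmethylated in both (56.2%, beside 65.2% of all protein-coding promoters) and 5 gained (31.2%, beside 16.9%). Olig2, a factor of the oligodendrocyte lineage, was at 2.33% and 5.60%, and Mbp, a myelin protein, at 5.07% and 16.6%. Aldh1l1, an astrocyte enzyme, went from 17.6% to 91.5%, Sox10, an oligodendrocyte and neural crest factor, from 45.9% to 91.0%, and Hepacam, a glial adhesion molecule, from 24.4% to 94.1%. Gfap and Aqp4 had too few shared sites at the promoter to be scored.

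Factors and markers of other lineages gained at 12 of 30 scored promoters (40%, beside 16.9%) and were unmethylated in both at 11 (36.7%, beside 65.2%). Myf5, a muscle determination factor, went from 45.5% (SD 38.7) to 100% (SD 0) over 15 sites, Msgn1, a factor of presomitic mesoderm, from 28.3% to 92.9%, and Pax8, a kidney and thyroid factor, from 7.16% to 74.5%. The early mesoderm and endoderm factors Eomes, Gsc and Foxa1 were under 4% in both libraries, and T was at 2.36% and 7.53%.

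Imprinted genes are expressed from 1 parental copy, and the list holds non-coding RNAs as well as protein-coding genes. Of 35 scored promoters, 9 gained (25.7%, beside 29% of promoters of all gene types) and 10 were unmethylated in both (28.6%, beside 52.4%). In neurons 14 stood between 25% and 75%. The share of promoters of all gene types in that range was not computed, and their neuron quartiles were 3.36% and 71.1%. Peg3 and Usp29, which share the same 10 sites, went from 11.2% (SD 11.9) to 44.1% (SD 11.8). Plagl1 went from 7.41% to 45.8%, Nap1l5 from 10.9% to 53.6%, and Gnas from 3.50% to 38.1%. H19 went from 39.4% (SD 36.6) to 72.9% (SD 13.5), and Peg13 from 39.2% to 84.8%. The tables do not separate the parental copies, so a middle level cannot be told from methylation of 1 copy. With the libraries rescaled by the mitochondrial mean 5 gained (14.3%, beside 27% of promoters of all gene types). Then 18 were unmethylated in both (51.4%, beside 59%). With a limit of 10 points 19 gained (54.3%, beside 40.7%), and with one of 50 points 0 gained (beside 14%).

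Of 30 housekeeping promoters, 25 were unmethylated in both (83.3%, beside 65.2% of all protein-coding promoters), and the 4 that gained (13.3%, beside 16.9%) were Ywhaz, Ldha, Gusb and Chmp2a. With at least 10 sites asked for, 2 of 27 gained (7.41%, beside 18.1% of promoters of all gene types). Over the whole gene Ywhaz was low in both, at 2.16% in ESCs and 4.10% in neurons over 179 sites. Of 16 scored genes of the machinery, 11 were unmethylated in both (68.8%, near the 65.2% of all). The de novo methyltransferase genes Dnmt3a and Dnmt3b were at 2.30% and 4.20%, and at 1.48% and 2.01%. Zbtb38, a methyl-CpG-binding zinc finger protein, was the only one to gain, from 4.03% (SD 3.48) to 87.6% (SD 9.71), with all 12 sites higher. Dnmt1 and Tet1 had too few shared promoter sites to be scored, and over the whole gene Dnmt1 was at 40.9% in ESCs and 74.1% in neurons, Tet1 at 14.5% and 52.4%.

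The promoters with the most shared sites among those unmethylated in both belonged to a kinase, transcription factors and chromatin proteins. Dyrk1a, a protein kinase, averaged 1.85% in ESCs (SD 6.69) and 2.45% in neurons (SD 6.50) over 243 sites. Elf2, an ETS factor, was at 1.60% and 1.93% over 239 sites, and Kmt2c, a histone H3K4 methyltransferase, at 2.05% and 2.33% over 236. Samd1 came next, and then Arid2, a subunit of a chromatin remodelling complex. Arid2 was the only one of the 5 with a lower mean in neurons, at 1.93% in ESCs and 1.82% in neurons.

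Promoter losses were few. Among 13115 protein-coding promoters with at least 10 sites, 26 (0.198%) were lower in neurons by 10 points or more. Pls3, which encodes the actin-bundling protein plastin 3 (chrX:75785654-75875182), averaged 38.0% in ESCs (SD 48.7) and 7.45% in neurons (SD 22.9) over 19 sites, a difference of -30.6 points. Of these, 7 sites were at 90% or above in ESCs and 12 were at 10% or below, and the medians differed by -4.68 points. The 6 sites that were lower by 25 points or more were at 100% in ESCs and 0% in neurons, none lay within 500 bp of the gene start, and all lay in annotated exons. The Tet/Tet ESC library, made in the same sequencing project as R1 ESCs, listed all 19 sites and was at 1.40%.

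Nosip, which encodes a protein that binds nitric oxide synthase, and the neighbouring gene Prrg2 start within the same window and share 22 sites, which averaged 29.2% in ESCs (SD 44.4) and 1.90% in neurons (SD 2.55). Of the 22, 6 were at 90% or above in ESCs and the median was 2.19%. The difference was -0.043 points at sites listed in all 4 tables, -0.53 in MspI fragments and -1.37 between the medians over sites. Tet/Tet ESCs listed 16 of the 22, and over these Tet/Tet ESCs stood at 2.26%, R1 ESCs at 2.65% and R1 neurons at 2.61%, so the 6 sites at 90% or above are not among them. Fam45a was at 32.2% and 6.47% over 10 sites, and its difference was -0.35 points in MspI fragments and -9.95 between the medians. Man2b1, a lysosomal mannosidase, was at 24.2% and 1.30%, and Zdhhc9, a palmitoyltransferase, at 23.1% and 2.36%. Between medians the differences were -1.11 and -2.55 points. At the sites that Tet/Tet ESCs also listed, 6 of 13 in Man2b1 and 19 of 24 in Zdhhc9, all 3 libraries were under 4%. Vrtn differed from the others in that 1 of its 11 sites was at 90% or above in ESCs, with 8 of 11 lower in neurons, means of 36.7% (SD 26.1) and 16.2% (SD 17.8) and, at 10 shared sites, 30.4% in R1 ESCs beside 40.9% in Tet/Tet ESCs.

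Over whole genes the upward difference was broader than at promoters. Of 25222 genes with at least 5 shared sites, 13270 (52.6%) gained, 2 (0.00793%) lost and 2591 (10.3%) were unmethylated in both, and neurons were higher in 97.9%. With the first 1 kb left out and at least 20 sites asked for, the largest gains among protein-coding genes were at Prickle3, a planar cell polarity gene, from 10.4% to 97.7%, and Tnfaip8l2, a regulator of immune responses, from 4.85% (SD 5.26) to 91.5% (SD 10.4) with all 30 sites higher. Mob3c, Zfp513 and the splicing regulator Rbm4 followed, with gains of 85.4 to 86.2 points. Only 29 of 10089 such genes (0.287%) were lower in neurons at all. The furthest down was Gsx1, a homeobox gene of ventral forebrain progenitors, at 7.24% in ESCs (SD 20.4) and 2.88% in neurons (SD 3.34), where 1 of 24 sites was at 100% in ESCs. E130218I03Rik, Ptma, Cited2 and Lor came next, each with a mean under 9% in both libraries, so none of the 5 is a loss by the limit used.

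Over whole genes, 42 of the 42 germline genes scored gained, beside 48.7% of protein-coding genes. Of the neurogenic list 3 of 36 gained (beside 48.7% of protein-coding genes) and 22 were unmethylated in both (beside 9.1%). Of the neuronal genes 22 of 34 gained over the gene, beside the same 48.7%. Their medians were 19.4% in ESCs and 49.7% in neurons, close to the 20.8% and 49.2% of all protein-coding genes. The median difference was 29.7 points for the neuronal genes and 24.4 points for all protein-coding genes. Map2, for example, went from 23.5% to 50.7% over the gene while its promoter stayed under 4%.

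The 3 tiles of 1 kb with the largest gain, among those with at least 10 sites, lay in the bodies of Tanc1 (chr2:59679001-59680000), Zmiz1 (chr14:25665001-25666000) and Rabggta (chr14:55720001-55721000). The Tanc1 tile was at 0% in ESCs and 100% in neurons at all 10 sites, the Zmiz1 tile at 1.40% (SD 3.96) and 99.4% (SD 2.35), and the Rabggta tile at 1.25% (SD 2.81) and 98.4% (SD 2.83). The largest loss was on chr3:101605001-101606000, an island at a promoter, with 36.3% (SD 48.5) and 1.35% (SD 2.24) over 17 sites, 6 of which were at 90% or above in ESCs while 11 were at 10% or below. The other two losses were of another kind. On chr5:101323001-101324000, between genes, the means were 58.1% (SD 27.9) and 26.1% (SD 21.2) over 11 sites, 9 of them lower, and on chr17:48774001-48775000, also between genes, 75.1% (SD 25.1) and 47.4% (SD 30.4), with 7 of 11 lower.

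The 110 tiles with a loss had a median of 75.03% in ESCs and 37.4% in neurons, on a median of 6 sites. By position 47.3% were intergenic, against 28.8% of all tiles, and 28.2% consisted mostly of repeats, against 16.6% of all. Taken by the median of their sites in place of the mean, 181 tiles lost, and 76 lost by both measures. Of the loss tiles, 67 had at least 5 sites in Tet/Tet ESCs as well. Over those shared sites the median was 70% in R1 ESCs against 57.5% in the Tet/Tet line, and 24 tiles (35.8%) were lower in Tet/Tet ESCs by 25 points or more, a step seen in 1.42% of all tiles. Since the tiles were chosen for a high R1 ESC value, this is a description only.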

How the data were processed

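Per the labels, DNA of R1 ESCs and R1 neurons was cut with MspI, ligated to methylated adapters, treated with bisulfite and sequenced, with 1 library each. Per the submitters' processing notes, the tools were FastQC 0.11.8, Trim Galore 0.6.4, Bismark 0.19.0 and MethylDackel 0.3.0, with reads mapped to mm10. The values the authors deposited are percent methylation per CpG, that is the share of reads still showing a cytosine, and were not scaled between libraries. The deposited percent values come without read totals, so the depth and precision of a value are unknown and the Fisher test of the study's methods was not run. No p-value was computed.

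All values were computed with Python 3.11.15, numpy 2.4.6, pandas 2.3.3 and numba 0.67.0, and figures with matplotlib 3.10.9. Sites listed in both R1 tables on chromosomes 1 to 19, X and Y were averaged without weights over tiles of 1 kb, over promoters (1 kb to either side of the gene start) and over genes of GENCODE release M21, each with at least 5 sites. Gain and loss meant 25 points or more, and unmethylated meant under 10% in both. Each gene has 1 start, its annotated 5′ end, which can be that of an upstream alternative transcript. Islands exceeded 200 bp in length and 0.6 in the ratio of observed to expected CpGs, with a GC content of 50% or more. MspI fragments of 40 to 220 bp were cut from the sequence. The region averages were tested on simulated data.

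Genes were named by a fixed rule. It took the 8 largest promoter gains and losses (at least 10 sites), the 5 largest gene gains and losses (at least 20 sites outside the first 1 kb), the 5 promoters with the most sites among those unmethylated in both, members of 10 gene lists, and the 3 largest tile gains and losses. The part of each promoter shown as sequence, the 240 bases outside exons with the most listed CpGs, was set after the values were seen. The members and lists were chosen with earlier results of these data known. Some genes that the rule takes in are not reported here. In Tet/Tet neurons, chromosomes 8 and 9 and parts of 7 and 10 were not analysed here.

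The alternatives were the chromosomes, the sites used, the number of sites asked for, the limits, the mean against the median, the extent of tiles, promoters and genes, and a background taken from mitochondrial DNA.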

Additional observations from a re-analysis of the deposited data

Results flagged for a closer look

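The 2 cell lines went opposite ways between ESCs and neurons. Over the 1545651 sites listed in all 4 tables, R1 neurons were higher than R1 ESCs by 26.6 points (26.8% and 53.3%), whereas Tet/Tet neurons minus Tet/Tet ESCs came to -17.2 points (28.1% and 10.9%). Both neuron libraries came from one sequencing project and both ESC libraries from the other. With 1 library per condition this difference between the lines was not tested.

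Mitochondrial DNA entered the comparisons only as the background of the rescaling. Its mean level was 15.9% in R1 neurons over 69 sites and 3.19% in R1 ESCs over 90 sites. The median mitochondrial site was at 0.705% in R1 neurons and at 0% in R1 ESCs. The part of this level in the higher values of R1 neurons was examined only by the rescaling given under the processing alternatives.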

How the results depend on the processing

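No alternative gave a lower mean in neurons. The difference of the means was 41.1 points over each table's own sites and 74.7 points between the medians over sites, and it lay between 21.9 and 27.2 points under the other alternatives. With neither replicates nor read totals, a value or count was held to have moved where it changed by more than 1.5 times. Sites in MspI fragments only left 50696 tiles, of which 25458 (50.2%) gained and 15 lost. They left 16993 promoters, with 2984 gains (17.6%) and 1 loss. Of the 20000 genes left, 8063 (40.3%) gained, 0 lost and 4792 (24%) were unmethylated in both. Sites listed in all 4 tables left 43 tiles and 7 promoters with a loss. With at least 10 sites 17613 of 40863 tiles gained (43.1%) and 9 lost. Of 17430 promoters 3149 gained (18.1%) and 4 lost, and of 21499 genes 0 lost. With at least 20 sites 2543 of 18026 tiles gained (14.1%) and 2 lost. Of 13828 promoters 1083 gained (7.83%) and 2 lost, and of 17656 genes 8110 gained (45.9%) and 0 lost. In the pairs of counts below, gains come first and losses second. Medians over sites gave 181 tiles, 9 promoters and 9 genes with a loss and 8726 genes unmethylated in both. A limit of 10 points gave 497 tiles with a loss, 59 promoters, and 20195 and 29 genes. A limit of 50 points gave 34690 and 16 tiles, 3052 and 1 promoters, and 3190 and 0 genes. Genes unmethylated in both were 1389 under 5% and 4691 under 20%. A promoter of 1 kb upstream gave 3221 gains among 13954 promoters (23.1%). Protein-coding genes alone gave 2464 and 7 of 14537 promoters and 8522 and 1 of 17501 genes, with 1592 genes unmethylated in both. Without the 1 kb next to the start 1 of 20181 genes lost and 541 were unmethylated in both. Rescaling by the mitochondrial mean, with negative results counted as unmethylated, left a difference of 25.9 points over sites and 11 genes with a loss. Rescaling in the same way by the mitochondrial median, an alternative chosen after seeing the data, left 27.0 points. The Pls3 promoter difference turned to 0.67 points in MspI fragments and 0.59 within 500 bp of the start, and that of Zdhhc9 to 0.149 at sites of all 4 tables, 0.0848 within 500 bp and 2.05 upstream. In the germline list 15 to 34 promoters gained. The lowest number was with 1 kb upstream only, where 17 were scored (88.2% gained, beside 23.1% of all promoters). The lowest share was 70.6%, with a limit of 50 points, beside 14%. The differences of Nosip, Prrg2, Fam45a, Man2b1 and Zdhhc9, and the counts of the neuronal and imprinted lists, moved as given in the report. Counts of each other list moved as well under some alternative, and 59 of 260 list counts moved in all. With at least 20 sites, for example, 2 of 14 pluripotency promoters gained (14.3%, beside 7.83% of all promoters). The causes were not tested. Depth could not be examined. No paired analysis was possible because each group has 1 library.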
